A study of Mus musculus with 16 samples.

Results

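The 9 retinoid genes followed here in demyelinated mouse spinal cord were taken by symbol from a count table of 46078 genes and fall into 3 roles. Adh1, Aldh1a1 and Aldh1a2 encode enzymes of retinoic acid synthesis, Rbp4 and Crabp2 encode carriers, and Rara, Rarb, Rxra and Rxrg encode receptors. The set was chosen by gene name with results of these libraries known: Adh1 had been selected on its low level in exercised against control mice at day 10. That contrast is therefore described for Adh1 and supports nothing.

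Retinoic acid is made from vitamin A in successive oxidations. Alcohol and retinol dehydrogenases turn retinol into retinaldehyde, and the retinaldehyde dehydrogenases of the Aldh1a family turn retinaldehyde into retinoic acid. Retinoic acid enters the nucleus on a small binding protein such as Crabp2 and binds a retinoic acid receptor (RAR), which sits on DNA as a pair with a retinoid X receptor (RXR). RXRs also pair with the vitamin D, liver X, thyroid hormone and peroxisome proliferator receptors. In the central nervous system the meninges are a known source of retinoic acid, and Rxrg is known for its role in oligodendrocyte differentiation during remyelination.

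The animals of all 4 groups were C57BL/6 mice aged 8 to 12 weeks whose spinal cords had been demyelinated with lysolecithin, a lipid that dissolves myelin membranes at the injection site. Exercised mice had a running wheel and control mice were kept alike without the exercise. RNA came from laser-microdissected lesions at day 5 or day 10, with 4 libraries in each of the groups control day 5, exercise day 5, control day 10 and exercise day 10. No undamaged cord was included in these groups, and the RNA was amplified before poly-A selected, strand-specific sequencing. The labels do not say whether each library is a separate animal, so p-values measure only the spread between these libraries.

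Total counts ran from 8125981 to 13930582 per library. At day 5 the control libraries were the deeper ones (11204380 to 13930582 against 8125981 to 10930385) and held less of the mitochondrial ribosomal RNA mt-Rnr2 (8.05 to 10.3% against 10.9 to 12.9% of counts), with no overlap. At day 10 both measures overlapped between the groups. Markers of oligodendrocytes, astrocytes, microglia and macrophages, endothelium and fibroblasts were all present, so the lesion samples held several cell types. In such bulk samples fewer cells of a type and less RNA per cell cannot be told apart.

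The regulatory sequence best known for this family is the retinoic acid response element of Rarb, a direct repeat of a hexamer with a spacer of 5 bases (DR5) through which RAR and RXR pairs act. Promoter windows from RefSeq (GRCm38.p6), each 250 bases before to 50 bases after an annotated start, were matched by symbol for 8 of the 9 genes, which gave 15 windows. Any pairing of the hexamers AGGTCA, with variant GGGTCA, with variant AGTTCA and with variant GGTTCA was allowed. Direct repeats with a spacer of 1, 2 or 5 bases were searched on both strands. Rarb held the 1 match, a DR5 from 53 to 37 bases before the start. It is shown in capitals in the 105 bases that end at that start (chr14:16575477-16575581, minus strand), which lie inside the Rarb locus downstream of its outermost annotated start.
Rarb promoter: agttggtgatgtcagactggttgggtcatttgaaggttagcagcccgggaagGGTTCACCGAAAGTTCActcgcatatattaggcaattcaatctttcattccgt
Such a DR5 occurred in 0.0974% of all 32851 windows, and any of the 3 spacings in 0.588%. The match describes these letters and says nothing of receptor binding in the lesion.

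The levels of the 9 genes spanned a wide range when divided by exon length. On the scale of CPM (counts relative to library size) per kilobase of exon, Aldh1a1 was highest with a mean of 42.2 ± 8.62 (SD, n = 16 libraries), and its lowest library (26.9) was above the highest of any other of the 9 genes. Rxra (9.56 ± 1.55) and Aldh1a2 (8.17 ± 3.03) followed, and their libraries overlapped. Rarb (3.16 ± 1.11) and Rxrg (2.77 ± 0.957) came next and also overlapped, while Adh1 (0.845 ± 1.118) and Rara (0.579 ± 0.315) were lower still. Rbp4 (0.397 ± 0.412) and Crabp2 (0.247 ± 0.339) were lowest, with ranges that reached 0. The groups are drawn gene by gene in the plot of CPM by library.

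**Figure D1:**
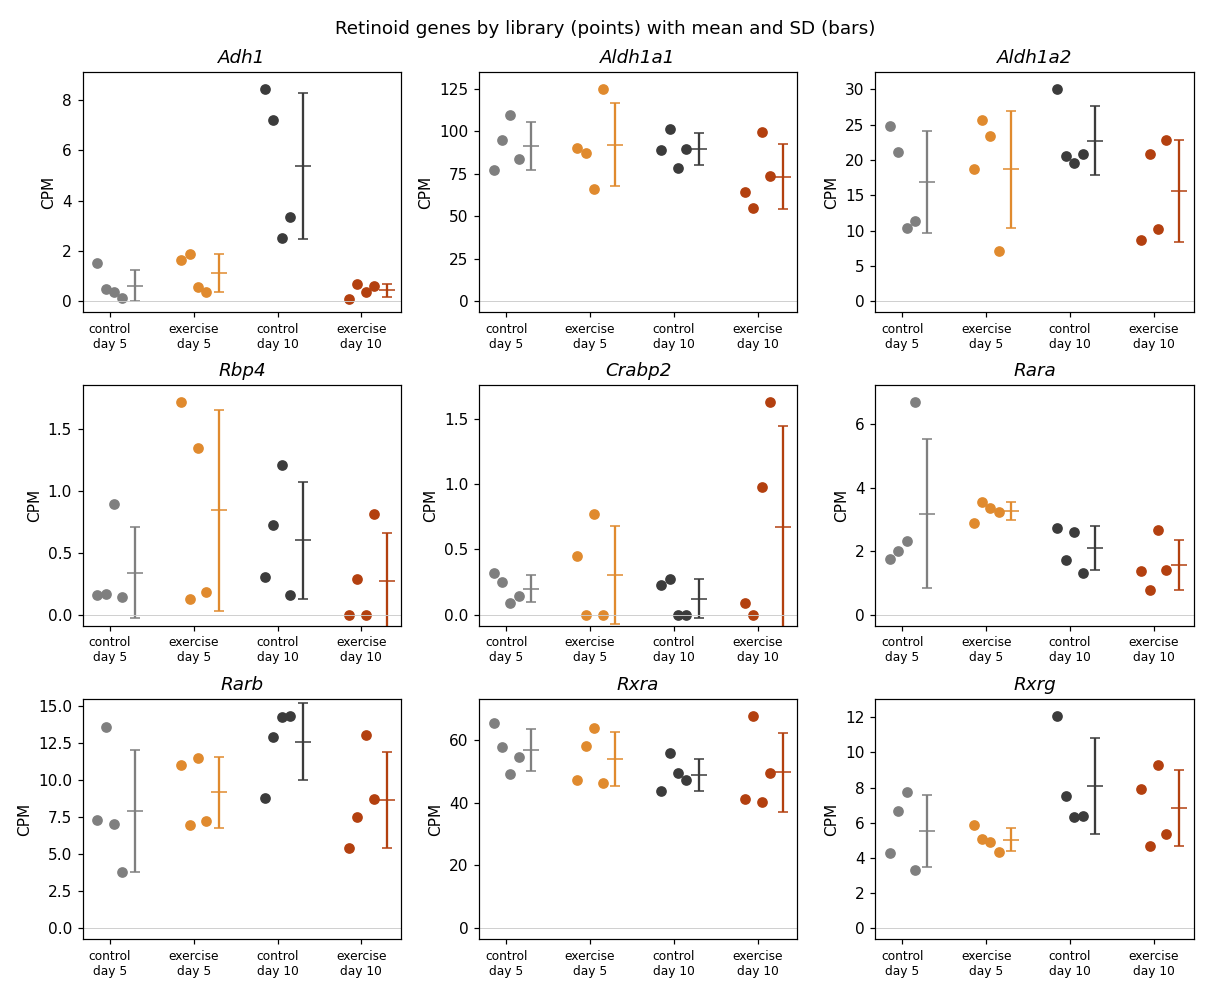
CPM (vertical axis, linear, its own scale in each panel) of the 9 genes in the 4 groups, with 1 point per library and the mean with SD at its right (n = 4 per group). The 4 control day 10 libraries of Adh1 (2.51 to 8.43 CPM) sit above its other 12 libraries, while the groups of the other genes overlap in most comparisons.

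Values below are CPM scaled by the trimmed mean of M-values (TMM) and are given in the order of the replicate numbers: 1, 2, 5 and 6 for control day 5; 1, 2, 7 and 12 for exercise day 5; 2, 3, 4 and 5 for control day 10; 13, 17, 18 and 19 for exercise day 10. Of the 9 genes, 7 passed the filter on low counts. Tests were edgeR's quasi-likelihood F test over 15096 genes with Benjamini-Hochberg adjustment and a threshold of 0.05. Differences are log2 fold changes with their standard errors (SE).

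Adh1 (ENSMUSG00000074207, chromosome 3, 138260991 to 138290698, plus strand, GRCm38) encodes a cytosolic alcohol dehydrogenase that oxidises retinol and clears excess vitamin A. In control day 5 its libraries held 1.51, 0.500, 0.356 and 0.145 CPM, and in exercise day 5 they held 1.62, 1.90, 0.579 and 0.368 CPM. Control day 10 stood at 8.43, 7.18, 2.51 and 3.36 CPM, and exercise day 10 at 0.0931, 0.683, 0.355 and 0.609 CPM. Every control day 10 library was above every library of the other groups, which overlapped one another; 9.33% of all genes had all control libraries higher at day 10 than at day 5. These levels rest on few reads: the 4 libraries of a group held 31, 43, 258 and 18 Adh1 counts in the same order of groups, 350 in all.

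Between day 5 and day 10, Adh1 rose in control mice by 3.08 (SE 0.65; edgeR adjusted p = 0.00464), from 0.628 ± 0.606 to 5.37 ± 2.88 CPM (SD, n = 4 each). It was the 1 of the 7 tested genes called in that contrast, in which 12.3% of all genes were called and 5.66% were called higher. The difference ranged from 2.74 to 3.99 when any 1 library was left out and stayed past the threshold each time. This contrast shares its control day 10 libraries with the contrast that brought Adh1 to notice, and Adh1 passed the filter through those libraries, so it is not independent of that choice.

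In exercised mice Adh1 was at 1.118 ± 0.758 CPM at day 5 and at 0.435 ± 0.268 CPM at day 10. The difference of −1.33 (SE 0.72; edgeR adjusted p = 0.262) did not pass the test, and none of the 7 genes was called by edgeR, DESeq2 or limma-voom in this contrast. Rara alone had an unadjusted edgeR p under 0.05, as did 25.8% of all genes. Among all genes edgeR called 10.1% at the adjusted threshold. At day 5 exercised and control mice differed in Adh1 by 0.80 (SE 0.68; edgeR adjusted p = 0.72), with overlapping libraries.

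At day 10 Adh1 was lower in exercised mice by −3.61 (SE 0.69), a 12.2-fold difference, and the groups did not overlap (2.58% of all genes were separated in that direction). This is the contrast through which the gene was noticed and no test is drawn from it. Adh1 is the 1 of 7 genes called there, beside 0.192% of all genes called and 0.0861% called lower, which restates how it was chosen and from which nothing is read. The difference lay between −3.29 and −3.91 when any 1 of the 8 libraries was left out. In the authors' deposited table, whose header names no exercise replicate 17, Adh1 stood at −3.96 (SE 0.681). The change of the exercise effect between days was −4.41 (SE 0.97) for Adh1, and it contains the same contrast.

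Markers of several cell types were followed beside Adh1, and they did not share its pattern in every contrast. From day 5 to day 10 in control mice the 8 oligodendrocyte markers went from a summed 10443 to 14326 CPM to 23454 to 26330 CPM, with 6 of 8 called higher, and the 8 astrocyte markers from 3173 to 5879 CPM to 6383 to 7723 CPM, with 5 of 8 called higher. Neither sum overlapped between the days. At day 10 the sums in exercised mice overlapped the control sums for both cell types (11670 to 26940 and 4802 to 6936 CPM). In that contrast 7 of 8 markers of each type had fitted values below 0. The medians were −0.36 for oligodendrocytes and −0.37 for astrocytes, beside 0.01 over all tested genes. None was called by edgeR, and DESeq2 called 1 astrocyte marker. With time in exercised mice the fitted value of Adh1 was −1.33. There 8 of 8 oligodendrocyte markers were above 0, with a median of 0.57 and 3 called higher. Astrocyte markers were above 0 for 7 of 8, with a median of 0.44 and 2 called higher. Among all genes 5.66% were called higher with time in control and 5.17% in exercised mice.

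The 12 listed fibroblast and meninges markers summed to 616 to 2710 CPM in control day 5, 1511 to 2774 in exercise day 5, 2789 to 3536 in control day 10 and 1397 to 4563 in exercise day 10. Of the 12, 10 were tested, and the organic anion transporter gene Slc22a6 had 2 counts in all. With time 9 of these 10 had fitted values above 0 in control mice (median 0.74) and 8 in exercised mice (median 0.49). Called higher were 1 in control and 1 in exercised mice, beside 5.66% and 5.17% of all genes. From day 5 to day 10 in control mice 1 of these 10 was called, Slc6a13, a transporter gene of the leptomeninges, which rose by 2.20 (SE 0.55; edgeR adjusted p = 0.0135). At day 10 Slc6a13 was lower in exercised mice by −2.22 (SE 0.56; edgeR adjusted p = 0.116) without overlap, as were 2.58% of all genes. In that contrast 4 of the 10 markers had fitted values above 0 and 6 below, with a median of −0.18. None of the 10 was called there by edgeR, and 1 had an unadjusted edgeR p under 0.05, as did 12.8% of all genes. DESeq2 and limma-voom each called 1, which was Slc6a13. At day 10 exercise replicates 18 and 19 had the highest fibroblast sums of all libraries (4563 and 3795 CPM) while their Adh1 levels were 0.355 and 0.609 CPM.

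The 6 Schwann cell markers summed to 3.13 to 14.2 CPM in control day 5 and 3.31 to 7.22 CPM in exercise day 5. At day 10 the sums were 15.7 to 65.8 CPM in control and 4.59 to 10.7 CPM in exercised mice, with no overlap. Of the 6, 5 were tested. With time all 5 had fitted values above 0 in control mice (median 1.77) and in exercised mice (median 0.78). Called higher in control mice were 2 of the 5, Egfl8 by 1.51 (SE 0.30; edgeR adjusted p = 0.00307) and Foxd3 by 2.64 (SE 0.77; edgeR adjusted p = 0.0308). Among all genes 5.66% were called higher in control mice. In exercised mice 0 of the 5 were called, beside 5.17% of all genes called higher. Between exercised and control mice at day 10 all 5 had fitted values below 0, with a median of −1.03. None of the 5 was called there by edgeR, DESeq2 or limma-voom, and 2 had an unadjusted edgeR p under 0.05, as did 12.8% of all genes. Pmp2, a myelin protein gene of Schwann cells, had 2 counts in all. Of 8 endothelial markers, 7 had fitted values below 0 in exercised against control mice at day 10, with a median of −0.77 beside 0.01 over all tested genes. Of the 8, edgeR called 1 (Slco1a4, lower), DESeq2 called 2 and limma-voom 1, and 5 had an unadjusted edgeR p under 0.05. Among all genes edgeR called 0.192%, with 0.0861% lower, and 12.8% had an unadjusted p under 0.05. The endothelial sums overlapped (203 to 270 against 245 to 282 CPM). With time in control mice 4 of the 8 had fitted values above 0 and 4 below, with a median of 3.05e-05. There 1 was called higher, beside 5.66% of all genes. With time in exercised mice 7 of the 8 were below 0, with a median of −0.90. There 3 were called lower, beside 4.9% of all genes. The part of oligodendrocyte, astrocyte, fibroblast, meningeal, Schwann and endothelial RNA in the Adh1 difference was not tested. Markers of choroid plexus and liver were near 0, with sums of at most 0.745 CPM.

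**Figure D2:**
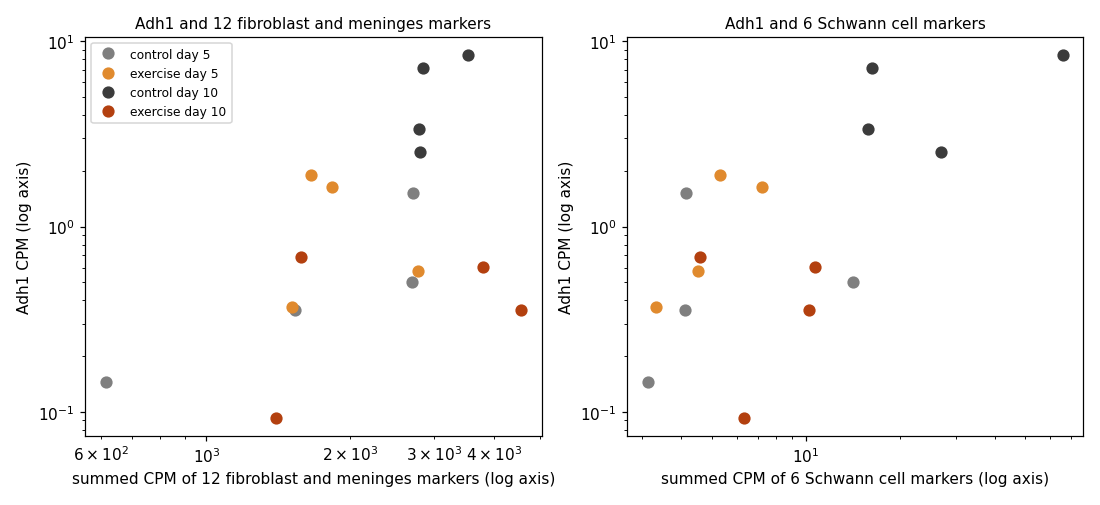
Adh1 CPM (vertical, log axis) against the summed CPM of 12 fibroblast and meninges markers (left) and of 6 Schwann cell markers (right; horizontal log axes), 1 point per library in 4 groups. Exercise day 10 replicates 18 and 19 combine the highest fibroblast sums (4563 and 3795 CPM) with 0.355 and 0.609 CPM of Adh1, and the control day 10 libraries are highest for Schwann markers (15.7 to 65.8 CPM).

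Aldh1a1 (ENSMUSG00000053279, chromosome 19, 20492715 to 20643465, plus strand) encodes a retinaldehyde dehydrogenase. Its libraries held 77.3, 94.8, 109.5 and 83.5 CPM in control day 5 and 90.1, 87.0, 66.3 and 125.0 CPM in exercise day 5. At day 10 they held 89.1, 101.3, 78.4 and 89.6 CPM in control and 64.6, 55.1, 99.8 and 74.0 CPM in exercised mice. The groups overlapped in every pairing. At day 10 exercised mice differed from control by −0.29 (SE 0.18; edgeR adjusted p = 0.539), and the other pairwise contrasts gave −0.33 to 0.01 with no call. Aldh1a7, a closely related neighbouring copy, held 164 counts in all against 15556 for Aldh1a1. How the counting divided reads between the pair was not tested.

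Aldh1a2 (ENSMUSG00000013584, chromosome 9, 71215789 to 71296243, plus strand) encodes the retinaldehyde dehydrogenase of embryonic mesoderm and of the meninges. It stood at 24.9, 21.1, 10.3 and 11.3 CPM in control day 5 and at 18.7, 25.7, 23.3 and 7.09 CPM in exercise day 5. At day 10 it stood at 30.1, 20.5, 19.5 and 20.9 CPM in control and at 8.76, 20.8, 10.2 and 22.8 CPM in exercised mice. Libraries within a group lay up to several-fold apart, and all groups overlapped. No contrast was called: exercised mice differed from control by 0.14 (SE 0.38; edgeR adjusted p = 0.935) at day 5 and by −0.55 (SE 0.38; edgeR adjusted p = 0.577) at day 10. From day 5 to day 10 the difference was 0.43 (SE 0.38; edgeR adjusted p = 0.502) in control mice and −0.26 (SE 0.38; edgeR adjusted p = 0.726) in exercised mice.

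Within the retinaldehyde dehydrogenase family, Aldh1a1 made up 80.2 to 83.2% of the summed CPM per kilobase in the group means, Aldh1a2 14.1 to 18.6% and Aldh1a3 0.651 to 4.02%. Aldh1a3, the third enzyme of the family, was uneven between libraries. It reached 16.4 CPM in control day 5, 19.3 in exercise day 5 and 17.2 in exercise day 10, but only 2.58 in control day 10. Its exercise difference at day 10, 2.11 (SE 1.06), did not pass the test. The summed family level was 53.5 ± 6.42, 55.3 ± 7.91, 54.1 ± 5.31 and 44.2 ± 10.3 CPM per kilobase in control day 5, exercise day 5, control day 10 and exercise day 10 (SD, n = 4), with overlapping libraries.

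The carriers were close to the limit of detection and entered no test. Rbp4 (ENSMUSG00000024990, chromosome 19, 38116629 to 38125281, minus strand), the plasma carrier of retinol, had 90 counts over 16 libraries. Its highest libraries were exercise day 5 replicates 1 and 7 with 1.72 and 1.35 CPM, and 2 exercise day 10 libraries had 0 counts. Every group held a library under 3 counts, so group levels are not compared.

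Crabp2 (ENSMUSG00000004885, chromosome 3, 87948666 to 87953376, plus strand), which passes retinoic acid to the RARs, had 57 counts over 16 libraries and 0 counts in 5 of them. Its highest values were 1.62 and 0.975 CPM in exercise day 10 replicates 19 and 18, from 16 and 11 counts, followed by 0.771 CPM in exercise day 5 replicate 7. The other exercise day 10 libraries held 1 and 0 counts. In these 3 libraries Aldh1a3 was at 10.6, 17.2 and 13.02 CPM, and Stra6, the cell-surface receptor that takes up retinol from its plasma carrier, at 2.74, 4.17 and 5.59 CPM. Exercise day 10 replicates 13 and 17 held 0.279 and 1.17 CPM of Aldh1a3 and 0.466 and 0.390 CPM of Stra6. Other libraries with high Aldh1a3 and Stra6 had little Crabp2: exercise day 5 replicate 1 held 19.3, 5.15 and 0.451 CPM of Aldh1a3, Stra6 and Crabp2, and control day 5 replicate 2 held 16.4, 4.08 and 0.250 CPM. Nor were all retinoid genes high together, since exercise day 10 replicate 18 had 0 counts of Rbp4 and 10.2 CPM of Aldh1a2. The fibroblast marker sums of the 3 libraries highest in Crabp2 were 3795, 4563 and 2774 CPM. The control day 10 libraries had sums of 2789 to 3536 CPM, with 0 to 0.273 CPM of Crabp2. The part of fibroblast RNA in these levels was not tested.

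Rara (ENSMUSG00000037992, chromosome 11, 98927818 to 98974942, plus strand) encodes a broadly expressed RAR. It stood at 1.75, 1.999, 2.32 and 6.69 CPM in control day 5 and at 2.89, 3.55, 3.38 and 3.22 CPM in exercise day 5. At day 10 it stood at 2.73, 1.73, 2.61 and 1.31 CPM in control and at 1.40, 0.781, 2.66 and 1.42 CPM in exercised mice. All exercise day 10 libraries lay below all exercise day 5 libraries, as in 7.09% of all genes. The difference of −1.04 (SE 0.45) had an unadjusted p of 0.0316 and an edgeR adjusted p of 0.149, so it did not pass. Control replicate 6 at day 5 decided the control values: the day 10 against day 5 difference of −0.61 (SE 0.43; edgeR adjusted p = 0.394) became 0.06 without it, and the exercise difference at day 5 went from 0.02 to 0.69.

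Rarb (ENSMUSG00000017491, chromosome 14, 16430839 to 16819156, minus strand) encodes the RAR whose own gene is a known retinoic acid target through the DR5 printed above. It held 7.31, 13.6, 7.04 and 3.78 CPM in control day 5 and 11.01, 6.97, 11.5 and 7.27 CPM in exercise day 5. At day 10 it held 8.81, 12.9, 14.2 and 14.3 CPM in control and 5.40, 7.51, 13.03 and 8.73 CPM in exercised mice. The groups overlapped throughout. Its difference from day 5 to day 10 in control mice, 0.67 (SE 0.33; edgeR adjusted p = 0.199), did not pass with all libraries and became 1.06 (adjusted p = 0.043) without control day 5 replicate 2. At day 10 exercised mice differed from control by −0.53 (SE 0.33; edgeR adjusted p = 0.513). Top2b overlaps the end of Rarb on the opposite strand, and the reads were counted by strand per the file headers.

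Rxra (ENSMUSG00000015846, chromosome 2, 27676440 to 27762957, plus strand) encodes the most abundant RXR in these lesions. It stood at 65.3, 57.7, 49.1 and 54.6 CPM in control day 5 and at 47.0, 57.9, 63.7 and 46.1 CPM in exercise day 5. At day 10 it stood at 43.6, 55.6, 49.2 and 47.1 CPM in control and at 41.3, 67.5, 40.1 and 49.3 CPM in exercised mice. Its groups overlapped, and its differences lay between −0.21 and 0.02 over the 4 pairwise contrasts with SEs of 0.16. None passed the test, the nearest being day 10 against day 5 in control mice (−0.21, edgeR adjusted p = 0.413).

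Rxrg (ENSMUSG00000015843, chromosome 1, 167598384 to 167639623, plus strand) held 4.29, 6.66, 7.75 and 3.34 CPM in control day 5 and 5.87, 5.07, 4.92 and 4.33 CPM in exercise day 5. At day 10 it held 12.1, 7.54, 6.33 and 6.39 CPM in control and 7.92, 4.68, 9.31 and 5.38 CPM in exercised mice. The day 10 means were the higher ones in both arms, 8.08 against 5.51 CPM in control and 6.82 against 5.05 CPM in exercised mice, but the libraries overlapped. The differences with time were 0.56 (SE 0.30; edgeR adjusted p = 0.238) and 0.44 (SE 0.30; edgeR adjusted p = 0.39). Exercised mice differed from control by −0.12 (SE 0.30; edgeR adjusted p = 0.927) at day 5 and by −0.24 (SE 0.29; edgeR adjusted p = 0.767) at day 10.

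Over the exercise contrast at day 5, none of the 7 tested genes was called by edgeR, DESeq2 or limma-voom, and none had an unadjusted edgeR p under 0.05. In that contrast edgeR called 0.0% of all genes at the adjusted threshold and 10.0% had an unadjusted p under 0.05. Over both days together 0.146% of all genes were called and none of the 7 by edgeR, DESeq2 or limma-voom. There 1 of the 7 (Adh1) had an unadjusted edgeR p under 0.05, as did 13.6% of all genes. That contrast contains the day 10 contrast through which Adh1 was chosen, so nothing is read from it for Adh1. The difference of the exercise effect between days had 0 genes called by edgeR (0.0%), and 9.11% of genes with an unadjusted p under 0.05, while DESeq2 called 9 genes, Adh1 among them. This difference also contains the day 10 contrast, so nothing is read from that call of Adh1. The plot of fitted differences sets the 4 pairwise contrasts side by side.

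**Figure D3:**
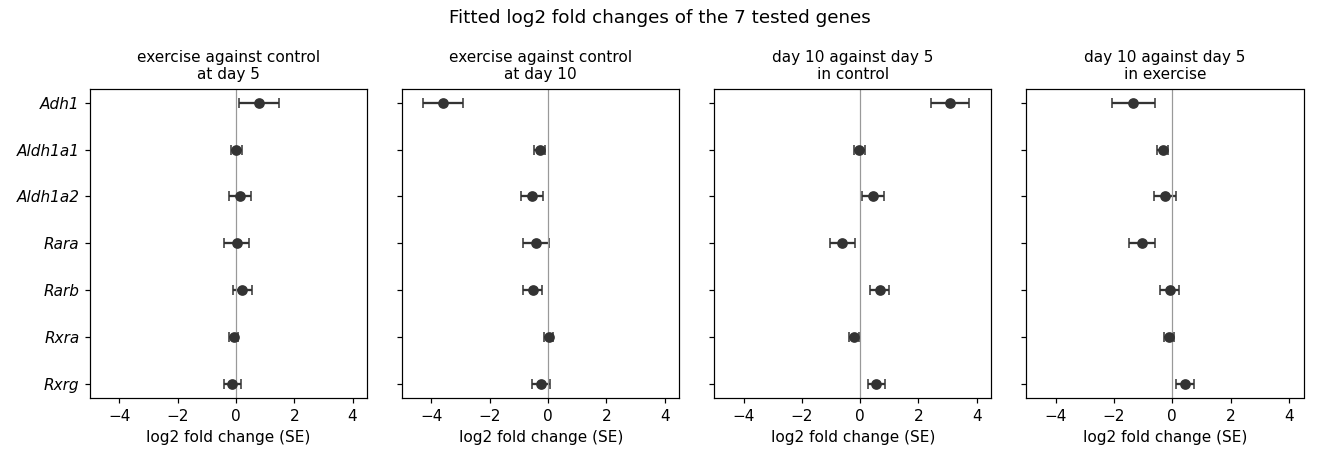
Log2 fold changes (horizontal axis; points) with their SE (bars) for the 7 tested genes in the 4 pairwise contrasts, each of 4 against 4 libraries. Adh1 stands at 3.08 for day 10 against day 5 in control mice and at −3.61 for exercise against control at day 10, which share the control day 10 libraries, while the other genes lie between −1.04 and 0.67.

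Rarb was the leading RAR by length-scaled level. Its share of the summed CPM per kilobase was 61.4 ± 17.3% in control day 5, 68.0 ± 4.59% in exercise day 5, 77.6 ± 10.3% in control day 10 and 71.3 ± 5.65% in exercise day 10 (SD, n = 4). Rara made up 19.7 ± 17.1%, 17.6 ± 4.46%, 9.24 ± 3.71% and 8.90 ± 2.77% in the same order. In exercised mice all day 10 shares of Rara (5.35 to 12.1%) lay below all day 5 shares (13.5 to 22.4%). Rarg, a RAR best known from skin and cartilage, made up 18.8, 14.4, 13.1 and 19.8%.

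Among the RXRs, Rxra made up 64.7 ± 5.66% and 64.0 ± 3.05% at day 5 and 53.1 ± 5.38% and 53.7 ± 11.4% at day 10, in control and exercised mice respectively. In control mice the day 10 shares of Rxra (45.4 to 57.2%) lay below the day 5 shares (58.4 to 72.0%), while in exercised mice they overlapped. Rxrb, the most widely expressed RXR, went from 20.3 to 26.2% in control and from 21.6 to 28.4% in exercised mice, and Rxrg from 15.01 to 20.7% and from 14.5 to 17.8%. These shares were not tested. The summed RXR level was 15.3 to 16.9 CPM per kilobase in the group means, and the summed RAR level 4.05 to 5.30.

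**Figure D4:**
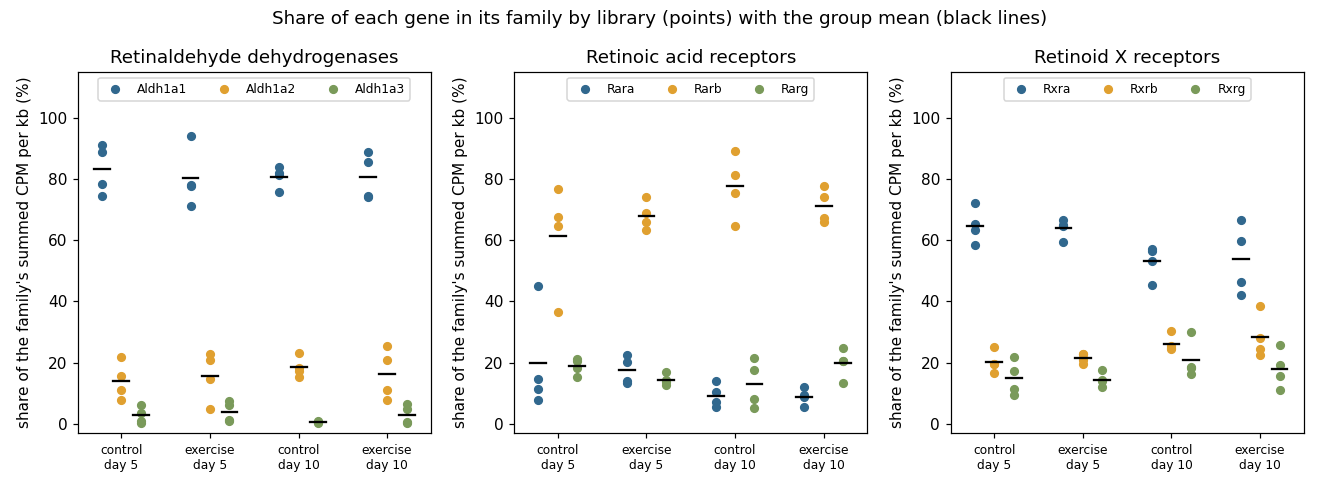
Share of each gene in its family's summed CPM per kilobase (vertical axis, percent) by group, with 1 point per library and a black line at the group mean. Aldh1a1, Rarb and Rxra lead their families in the mean of every group, and control day 5 replicate 6 is the library where Rara reaches 45.1%.

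Of 41 other genes of retinoid uptake, storage, oxidation and breakdown, 23 were tested. Between exercised and control mice none was called by edgeR, DESeq2 or limma-voom, and the edgeR counts at an unadjusted p under 0.05 were 1 at day 5 and 0 at day 10. With time 1 was called higher and 2 lower in control mice, where 12.3% of all genes were called. In exercised mice 1 was called higher and 3 lower, where 10.1% of all genes were called. The median differences were −0.21 and −0.17, beside 0.01 over all tested genes in each arm. These contrasts are separate in their libraries.

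Fabp5, a fatty acid carrier that can also hand retinoic acid to PPARD, fell by 0.79 (SE 0.16; edgeR adjusted p = 0.00315) in control mice and by 1.19 (SE 0.16; edgeR adjusted p = 0.000234) in exercised mice. Its control libraries went from a range of 1016 to 1573 CPM at day 5 to one of 701 to 766 CPM at day 10, and its exercise libraries from 1156 to 2009 CPM to 649.7 to 729 CPM. The days did not overlap in either arm. Among all genes 10.7% were separated in that direction in control and 7.09% in exercised mice. Fabp5 is abundant in macrophages, and the 8 microglia and macrophage markers summed to 8290 to 13773 CPM at day 5 and 7408 to 8766 CPM at day 10 in control mice. In exercised mice they summed to 9441 to 13658 and 7165 to 9437 CPM, without overlap. The single markers did not all follow the sums. In exercised mice 6 of the 8 had fitted values above 0, with 4 called higher and 2 lower. In control mice 4 of the 8 were above 0, with 2 called higher and 1 lower. The part of these cells in the Fabp5 fall was not tested.

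Bco2, a mitochondrial enzyme that cleaves carotenoids, rose from 24.8 ± 6.72 to 41.9 ± 6.37 CPM in control mice (0.75, SE 0.21; edgeR adjusted p = 0.0253) and from 23.7 ± 7.68 to 45.1 ± 6.46 CPM in exercised mice (0.92, SE 0.21; edgeR adjusted p = 0.0104). Oligodendrocyte markers had fitted values above 0 for 8 of 8 in both arms, with 6 called in control and 3 in exercised mice, and astrocyte markers for 7 of 8, with 5 and 2 called. Their part in the Bco2 rise was not tested. Stra6l, a retinol-binding protein receptor related to Stra6, fell by 1.03 (SE 0.27; edgeR adjusted p = 0.0173) in control and by 1.01 (SE 0.27; edgeR adjusted p = 0.0229) in exercised mice. The control call of Bco2 was lost without control day 5 replicate 1 or 2 or control day 10 replicate 4 or 5 (adjusted p from 0.0617 to 0.0813). The control call of Stra6l was lost without control day 5 replicate 1 (0.0689) or control day 10 replicate 5 (0.0583). Its exercise call was lost without exercise day 5 replicate 2 or 7 or exercise day 10 replicate 13 or 18 (0.051 to 0.0664).

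Dhrs9, a short-chain dehydrogenase that can oxidise retinol, fell in exercised mice from 6.48 ± 4.43 to 1.93 ± 1.09 CPM (−1.74, SE 0.54; edgeR adjusted p = 0.0481). That call rested near the threshold and was lost without exercise day 5 replicate 2, 7 or 12 or exercise day 10 replicate 17, 18 or 19, with adjusted p from 0.0511 to 0.203. Without exercise day 5 replicate 7 the difference was −1.14.

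The other genes named here passed the edgeR test in no contrast. Dhrs3, which reduces retinaldehyde back to retinol and is itself a known retinoic acid target, stayed between 337 and 462 CPM in all 16 libraries. Rdh10, the retinol dehydrogenase of embryonic retinoic acid synthesis, ranged from 8.07 to 21.9 CPM. Cyp26b1, which breaks retinoic acid down, was at 3.40 ± 1.001, 5.33 ± 1.57, 2.42 ± 0.860 and 2.73 ± 1.21 CPM in control day 5, exercise day 5, control day 10 and exercise day 10. Lrat, which stores retinol as esters, was at 0 to 2.54 CPM and was not tested. Crabp1 and Ttr, a second retinoic acid carrier and the plasma partner of Rbp4, each had counts in 1 of 16 libraries.

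Nuclear receptors that pair with RXRs, or that stand for the same receptor family, were also followed. Of 13 listed, 11 were tested, with 2 called with time in control mice and 1 in exercised mice. Among all genes 12.3% and 10.1% were called. The genes named here and in the next 2 paragraphs were chosen after their values were seen, being all those called. In control mice Nr4a1, an immediate early orphan receptor, rose by 1.17 (SE 0.35; edgeR adjusted p = 0.0341) and Nr1h3, the liver X receptor alpha gene of macrophages, fell by 1.23 (SE 0.38; edgeR adjusted p = 0.0402). In exercised mice Vdr, the vitamin D receptor gene, fell from 3.99 ± 1.90 to 0.974 ± 0.371 CPM (−2.01, SE 0.45; edgeR adjusted p = 0.00791). The Nr4a1 call was lost without control day 10 replicate 2 (0.72, adjusted p = 0.177) or without control day 5 replicate 2, 5 or 6 (0.0607 to 0.0915). The Nr1h3 call was lost without control day 5 replicate 1, 2 or 6 or control day 10 replicate 2, 4 or 5 (0.0594 to 0.115).

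All 12 listed receptor cofactors were tested, and 1 was called with time in control and 3 in exercised mice, all higher. Among all genes 5.66% were called higher in control and 5.17% in exercised mice. Nrip1, a corepressor that RARs recruit with ligand, rose by 0.46 (SE 0.13; edgeR adjusted p = 0.0212) in control and by 0.52 (SE 0.13; edgeR adjusted p = 0.0129) in exercised mice. In exercised mice the histone acetyltransferase genes Ep300 (0.54, SE 0.12; edgeR adjusted p = 0.00922) and Crebbp (0.33, SE 0.10; edgeR adjusted p = 0.0368) rose as well. Nrip1 lost its control call without control day 5 replicate 6 or control day 10 replicate 3 or 4 (0.0519 to 0.0696) and its exercise call without exercise day 5 replicate 7 (0.0504). Crebbp lost its call without any exercise library except exercise day 10 replicate 17 (0.057 to 0.095).

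Of 18 genes known to respond to retinoic acid, 13 were tested, and edgeR, DESeq2 and limma-voom called none in any contrast but day 10 against day 5 in exercised mice. In the other contrasts 1 to 3 had an unadjusted edgeR p under 0.05, beside 9.11 to 26.9% of all genes. From day 5 to day 10 in exercised mice 11 of the 13 had fitted values below 0 and 2 were called lower, beside 4.9% of all genes. These were Tgm2, a transglutaminase gene, lower by 0.91 (SE 0.22; edgeR adjusted p = 0.0139) and Ret, a neurotrophic factor receptor gene, lower by 2.11 (SE 0.32; edgeR adjusted p = 0.000654). Ret went from 39.9 ± 6.83 to 9.21 ± 5.41 CPM. In control mice it went from 16.4 ± 4.06 to 9.90 ± 2.15 CPM without a call. The 8 neuron markers summed to 466 to 885 CPM at day 5 and 125 to 520 CPM at day 10 in exercised mice. All 8 had fitted values below 0 there, with a median of −1.55, and 3 were called lower. Their part in the Ret difference was not tested. Rarb, a known target of the same kind, did not pass the test in either arm.

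The genes whose libraries followed each retinoid gene most closely were taken by the root mean square (RMS) difference of centred log2 CPM over the 16 libraries. For Adh1 these were Cemip (RMS 0.90), Vgll3 (0.91) and Slc7a11 (0.98), beside an RMS of 1.45 for Adh1 around its own mean. Cemip stood at 2.77, 2.17, 11.2 and 3.01 CPM in the means of control day 5, exercise day 5, control day 10 and exercise day 10, Vgll3 at 2.73, 2.92, 8.00 and 3.13, and Slc7a11 at 11.7, 15.9, 22.2 and 6.21. The nearest gene was Tril for Aldh1a1 (RMS 0.15 against its own 0.29), C1ql3 for Aldh1a2 (0.37 against 0.61), Nkx2-2 for Rara (0.42 against 0.65), Efemp1 for Rarb (0.32 against 0.53), Fblim1 for Rxra (0.12 against 0.22) and Itgb8 for Rxrg (0.24 against 0.44). These matches share libraries, depth and cell makeup and are a description.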

How the data were processed

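RNA of 16 mouse spinal cord lesion libraries was analysed from the counts per gene that the authors deposited. Per the file headers these counts were made with featureCounts on the gene's own strand. The submitters' processing notes name FastQC 0.11.4, TopHat2 2.0.10, Bowtie 1.1.2, featureCounts 1.5.0-p1, DESeq2 1.12.4 and GRCm38. Log2 fold changes and p-values of the authors' deposited tables are quoted only where named, and the authors' normalised values were not used.

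The 9 genes and all gene lists were chosen with earlier results of these data known. Of the listed genes, the text names all 9, a set of core pathway genes, and those called in a contrast. edgeR 4.0.16 (R 4.3.3) was fitted to all 16 libraries with 1 mean per group, TMM scaling, a low-count filter (minimum count 10, minimum total 15; 15096 genes kept) and 12 residual degrees of freedom, tested on simulated data. There were 6 contrasts. SE is the fold change divided by the root of its F value. Likeness used a prior count of 2. Locations come from GENCODE for GRCm38, and 45143 of 46078 gene IDs had a symbol. Counts without molecular identifiers, made after amplification, carry more than counting error. Alternatives were other scaling (RLE, or library sizes without mitochondrial ribosomal RNA), no filter, limma-voom (limma 3.58.1), DESeq2 1.42.0, pairwise fits, single-library omissions and a replicate block.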

Additional observations from a re-analysis of the deposited data

Results flagged for a closer look

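In 3 of 76 groups of 4 libraries 1 library stood apart from the others by the Dixon test at 95%, which chance gives in about 5% of groups. Aldh1a2 was at 30.1 CPM in control day 10 replicate 2, while the other libraries of the group lay between 19.5 and 20.9 CPM. Rara was at 6.69 CPM in control day 5 replicate 6, against 1.75 to 2.32 CPM in the others. Cyp26b1 was at 1.91 CPM in control day 5 replicate 1, against 3.78 to 4.01 CPM in the others.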

How the results depend on the processing

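Of the 7 tested genes, 1 was called for exercise against control at day 10. That count was 0 with limma-voom and 0 in a fit of the day 10 libraries alone, and ranged from 0 to 1 over single omissions (0 without control replicate 2, 3 or 5 or exercise replicate 13, 17 or 19). For day 10 against day 5 in control mice the count was 1, with a range of 1 to 2 over single omissions. It was 1 for the difference of the exercise effect between days with DESeq2, against 0 with edgeR. That gene was Adh1, and the difference contains the day 10 contrast through which Adh1 was chosen, so nothing is read from it. No named gene reversed its direction past the threshold. Over all genes, edgeR called 0 in the exercise contrast at day 5, 29 at day 10, 22 over both days and 0 for the difference between days, where DESeq2 called 75, 218, 320 and 9. Single omissions gave 0 to 1, 0 to 136, 0 to 100 and 0 to 2 genes. The fit of day 10 libraries alone called 0, and a fit of the exercise libraries alone called 863 with time against 1520. Without exercise day 5 replicate 7 that count was 992. The cause was not tested.

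Same-numbered libraries of different groups were correlated by −0.07 to 0.07 in their deviations from the group means. The labels do not say what the numbers stand for, and such correlations cannot exclude shared handling. With a replicate block over the 7 libraries of shared numbers (2 residual degrees of freedom), 553 genes were called for day 10 against day 5 in control mice against 1858, and Adh1 stood at 3.35 (edgeR adjusted p = 0.0327). For Adh1 this contrast is not independent of its choice, because it uses the control day 10 libraries, so the value is no separate support. In that block fit Fabp5, Bco2, Stra6l, Nr1h3, Nr4a1 and Nrip1 were not called (adjusted p from 0.0792 to 0.378). Dhrs9 and Crebbp also lost their calls without the filter (0.0731 and 0.105) and in the exercise-only fit (0.0706 and 0.0891). Without division by length the control day 10 shares moved from 53.1 to 66.6% for Rxra, from 20.7 to 11.1% for Rxrg and from 0.651 to 1.42% for Aldh1a3. Low counts limit Adh1, Rbp4 and Crabp2.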
